A study of Mus musculus with 2 samples.

Results

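Cycling subpallial progenitors were taken as cells that carried cell cycle transcripts and subpallial transcription factor transcripts together and had no transcript of 2 pallial factors. A member needed at least 4 UMIs (unique molecular identifiers, each standing for 1 captured transcript) of Top2a and Mki67 together, at least 2 UMIs of Dlx2 and Gsx2 together, and 0 UMIs of both Emx1 and Eomes. The rule found 486 members among 19630 cells, 246 of 10666 in the Tcf4_cKO library and 240 of 8964 in the WT library. Single cells had been dissociated from the corticoseptal boundary, the tissue where the cortex meets the septum at the midline, of mouse embryos at E16.5. The Tcf4_cKO embryos were Tcf4f/f;Emx1Cre, that is, they carried a floxed Tcf4 gene and a Cre recombinase driven by Emx1, a gene of the dorsal telencephalon, and the other embryos were wild type. There was 1 library per genotype, and the labels do not give how many embryos were pooled in each. With 1 library a group no difference between genotypes could be tested: all intervals below are 95% and cover counting error only, neither the spread between embryos nor the larger spread between cells.

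The subpallium is the ventral telencephalon, whose ganglionic eminences and septum give rise to GABAergic and cholinergic neurons and to early oligodendrocyte precursors. Its dividing cells comprise radial glia at the ventricle, which use Notch signalling and express Hes5, and intermediate progenitors above them, which express the Dlx genes and soon become neurons. Gsx2 and Dlx2 encode homeodomain factors of this territory, Nkx2-1 marks its most ventral part, and Zic and Six3 factors mark the septum. Top2a encodes the DNA topoisomerase of mitotic chromosomes and Mki67 the Ki-67 protein of dividing cells. In mm10, the build named in the submitters' processing notes, Gsx2 lies on chromosome 5 at 75075601 to 75077893, Dlx2 on chromosome 2 at 71543408 to 71546754, and Top2a on chromosome 11 at 98992943 to 99024189. Tcf4 encodes an E protein, the partner with which proneural factors bind DNA.

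Members expressed genes of S phase and of G2 and M phase, whose promoters hold letters known to act in cell cycle control. They are printed here because transcripts of both gene lists were found in the members of both libraries. Promoters of 250 bases before to 50 after the start came from RefSeq (GRCm38.p6). Letters were searched on both strands, and matches may overlap each other. The sequence TTTGAA, the core of the cell cycle genes homology region (CHR), was present in 29 of 42 promoters of the G2 and M phase list (69.0%), in 4 of 26 of the S phase list (15.4%) and in 18.1% of all 27025 promoters. CCAAT was present in 32 of 42 G2 and M phase promoters (76.2%), in 17 of 26 S phase promoters (65.4%) and in 37.9% of all. The E2F letters TTTCGCGC or TTTGGCGC were present in 9 of 26 S phase promoters (34.6%), 1 of 42 G2 and M phase promoters (2.38%) and 0.833% of all. In the Top2a promoter (chr11:99024140-99024439, minus strand) and the Cdc20 promoter (chr4:118437294-118437593, minus strand) capitals mark TTTGAA and CCAAT. Top2a held 2 CHR matches and 6 CCAAT matches, and Cdc20, whose protein activates the anaphase-promoting complex, held 1 and 2.
Top2a: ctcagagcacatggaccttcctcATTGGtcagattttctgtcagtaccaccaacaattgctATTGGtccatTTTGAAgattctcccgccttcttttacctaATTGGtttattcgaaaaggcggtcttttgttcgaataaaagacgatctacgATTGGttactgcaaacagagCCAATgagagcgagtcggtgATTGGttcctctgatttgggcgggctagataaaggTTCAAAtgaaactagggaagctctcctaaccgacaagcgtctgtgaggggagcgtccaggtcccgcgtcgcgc
Cdc20: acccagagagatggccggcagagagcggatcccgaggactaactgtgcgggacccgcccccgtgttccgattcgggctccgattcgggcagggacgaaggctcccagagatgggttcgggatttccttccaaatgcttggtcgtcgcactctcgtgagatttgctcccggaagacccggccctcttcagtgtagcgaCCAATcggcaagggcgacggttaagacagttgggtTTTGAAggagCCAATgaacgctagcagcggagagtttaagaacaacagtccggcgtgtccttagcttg
In the promoters of Mcm6 (chr1:128359656-128359955, minus strand) and Mcm5 (chr8:75109259-75109558, plus strand), which encode subunits of the replicative helicase, capitals mark the E2F letters, with 3 matches in Mcm6 and 2 in Mcm5.
Mcm6: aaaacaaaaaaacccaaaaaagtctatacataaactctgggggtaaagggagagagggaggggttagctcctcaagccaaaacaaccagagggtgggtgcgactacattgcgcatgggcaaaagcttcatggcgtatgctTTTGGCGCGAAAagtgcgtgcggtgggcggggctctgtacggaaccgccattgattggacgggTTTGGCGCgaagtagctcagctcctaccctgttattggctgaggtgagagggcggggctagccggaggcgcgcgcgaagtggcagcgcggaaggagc
Mcm5: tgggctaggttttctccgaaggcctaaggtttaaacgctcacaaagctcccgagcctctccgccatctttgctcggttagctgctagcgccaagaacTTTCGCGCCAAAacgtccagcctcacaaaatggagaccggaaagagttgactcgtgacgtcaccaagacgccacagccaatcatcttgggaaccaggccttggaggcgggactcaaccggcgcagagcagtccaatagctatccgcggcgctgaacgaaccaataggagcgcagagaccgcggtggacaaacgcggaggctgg

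The libraries held 121321247 UMIs (Tcf4_cKO) and 116998498 UMIs (WT). Members had medians of 10732.5 UMIs and 3425 genes in Tcf4_cKO and 12458.5 UMIs and 3762 genes in WT. Cycling Emx1 cells, used for comparison, met the same Top2a and Mki67 limit and had at least 1 Emx1 UMI, and their medians were 14759 and 16026 UMIs in Tcf4_cKO and WT. The 2 libraries shared 23 cell barcodes, of which 0 were members. Scrublet called 28 of the 246 Tcf4_cKO members (11.4%) and 25 of the 240 WT members (10.4%) as doublets, above the 5.13% and 3.68% of all cells, and they were kept, since the rule does not remove them.

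One pair of Tcf4_cKO members carried the RNA of another cell type. One had 39399 UMIs, 137 of them from the microglia genes C1qa, C1qb and Csf1r, and was called a doublet. The other had 80816 UMIs, 128 of them from the endothelial genes Cldn5, Flt1 and Pecam1 and 190 from Sparc, with 1 UMI of Dlx2, and was not called one. Together with the rest of the members, these cells gave microglia marker sums of 96.1 CPM in Tcf4_cKO and 4.51 CPM in WT, where CPM is the UMIs of a gene per 1000000 UMIs of the summed cells, with 0 and 3 of 8 markers at 0. Endothelial marker sums were 69.6 and 3.31 CPM, with 0 and 2 of 7 markers at 0. Red cell transcripts were likewise held by few cells, 11159 of 11532 such UMIs by 3 Tcf4_cKO members and 8577 of 9098 by 2 WT members. Ependymal marker sums were at most 13.8 CPM, with 3 of 6 markers at 0 in each library.

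Members made up 2.31% (2.03 to 2.61, exact Clopper-Pearson interval) of Tcf4_cKO cells and 2.68% (2.35 to 3.03) of WT cells, and these intervals overlapped. They were 18.1% (16.1 to 20.2) of the cycling cells in Tcf4_cKO and 18.6% (16.6 to 20.9) in WT. Cycling Emx1 cells were 42.1% (39.4 to 44.7) of the cycling cells in Tcf4_cKO and 47.9% (45.1 to 50.6) in WT, so those intervals did not overlap. Such shares cannot be told apart from how much of each region a dissection took. Among cells with Dlx2 or Gsx2 by the same limit, members were 11.2% (9.93 to 12.6) in Tcf4_cKO and 11.5% (10.1 to 12.9) in WT.

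The edges of the rule were thinly filled on the cell cycle side and wider on the Dlx2 side. Members had a median of 20 Top2a and Mki67 UMIs in Tcf4_cKO and 24 in WT, and 10 and 12 of them sat at the limit of 4. At 3 UMIs, 19 Tcf4_cKO and 18 WT cells would otherwise have been members. At the Dlx2 and Gsx2 limit of 2 UMIs there were 25 and 23 members, and 68 and 42 cells with 1 UMI were left out. An Emx1 or Eomes UMI excluded 56 and 46 cells.

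Genes outside the rule matched the label. Dlx1, the neighbour and partner of Dlx2, had at least 1 UMI in 96.7% of Tcf4_cKO members and 92.5% of WT members, against 14.5% and 11.5% of the cycling Emx1 cells. Gad2, a GABA-synthesizing enzyme, was found in 57.7% of Tcf4_cKO members and 60.8% of WT members. When every cell was thinned to the minimum depth of the rule, Dlx1 was found in 82.9% and 80.0% of members and Gad2 in 33.7% and 32.5%. In microglia, which should lack these genes, the thinned shares in Tcf4_cKO and WT were 6.67% and 3.92% for Dlx1 and 4.44% and 3.92% for Gad2, at unthinned median depths of 8918 and 10304 UMIs. Gsx2 itself was the weaker of the named markers, with a UMI in 39.8% of Tcf4_cKO members and 41.2% of WT members, and thinned shares of 18.3% and 14.6% against 4.44% and 0% of microglia. A count of 0 in 51 WT microglia allows a share of up to 6.98%.

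**Figure D1:**
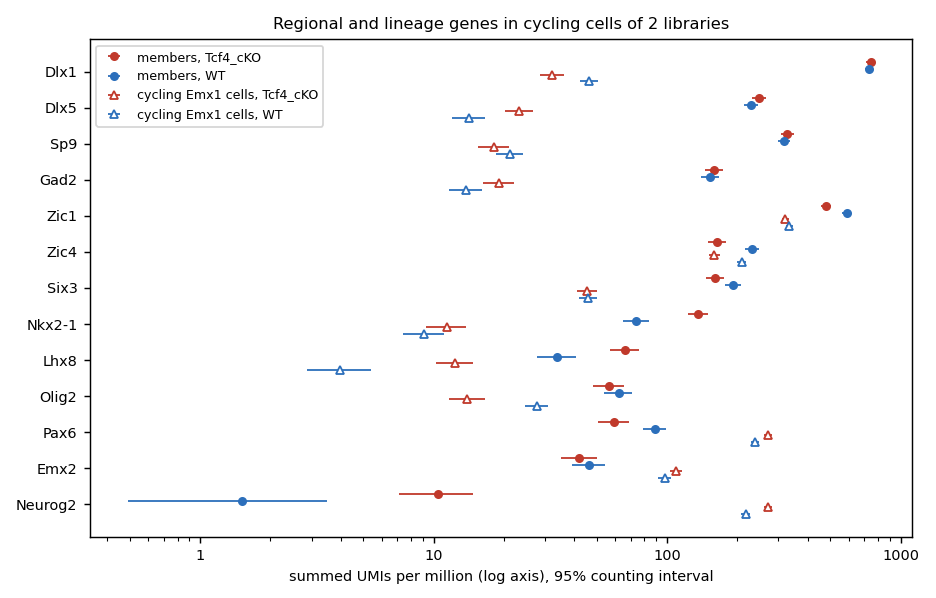
Summed level of regional and lineage genes in CPM (log axis) with 95% counting intervals; filled circles are members, open triangles cycling Emx1 cells, red Tcf4_cKO and blue WT. Dlx1 reached 744 CPM in Tcf4_cKO members and 730 CPM in WT members, against 32.2 and 46.2 CPM in cycling Emx1 cells, while Zic4 was at similar levels in both kinds of cell.

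The contrast between members and cycling Emx1 cells was partly fixed by the rule and is a description. Across 12020 genes with at least 20 UMIs in each library's comparison, 354 (2.95%) were over 1.5-fold higher in members in both libraries and 747 (6.21%) over 1.5-fold lower, on log2 of CPM plus 5. Within Tcf4_cKO 557 of 12229 genes (4.55%) were past it upward and 1152 (9.42%) downward, and within WT 541 of 12458 (4.34%) and 1152 (9.25%). After the rule's own genes, Dlx1 was among the highest, with 23.1 times the level of cycling Emx1 cells in Tcf4_cKO and 15.8 times in WT. Sp9, a zinc finger factor of striatal progenitors, was 18.1 and 15.0 times higher in Tcf4_cKO and WT. Slc18a2, the vesicular monoamine transporter gene, was at 69.5 CPM in Tcf4_cKO members and 73.4 CPM in WT members, which was 23.4 and 17.2 times its level in cycling Emx1 cells. Dlx6os1, Dlx5, Dlx6, Asb4, Gad2, Nrxn3 and Nkx2-1 completed the 12 highest genes, with ratios of 7.45 to 17.8. Dlx6os1 is antisense to Dlx6, and the sources used here do not say how reads were assigned to strands, so these 2 are uncertain.

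Pallial genes were low in the members. Neurog2, the proneural factor of dorsal progenitors, was at 10.4 CPM in Tcf4_cKO members and had 5 UMIs in all WT members, against 270 and 217 CPM in cycling Emx1 cells. Hopx, a gene of basal and outer radial glia, was at 49.7 and 57.5 CPM against 514 and 485 CPM. Tfap2c, Dmrta2, Tesc, Nrn1, Limch1, Ecrg4, Tnc and Emid1 were also among the 12 lowest, with ratios of 0.0348 to 0.136. Of all genes, 57.3% were lower in members in Tcf4_cKO and 54.7% in WT. All 20 radial glia genes were lower in members in both libraries, 15 past 1.5-fold in Tcf4_cKO and 17 in WT, with list medians of -1.06 and -1.17 on the log2 scale against -0.05 and -0.04 for all genes. Cholesterol synthesis genes were lower for 19 of 20 in both libraries. All 16 GABAergic neuron genes were higher in members in both libraries, 15 of them past 1.5-fold, against 42.7% of all genes higher in Tcf4_cKO and 45.3% in WT. That list also holds genes of neurons in general, such as Tubb3, Dcx, Stmn2 and Sox11, so it does not measure GABAergic identity alone. Cyclin and CDK inhibitor genes were higher for 10 of 14 in Tcf4_cKO and 11 of 14 in WT.

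Septal midline factors marked most of the members, but not the members alone. Compared with cycling Emx1 cells, 8 of 12 septal midline genes were higher in each library, against 42.7% (Tcf4_cKO) and 45.3% (WT) of all genes. In Tcf4_cKO, 0 of 12 were higher than in cells with Dlx2 or Gsx2 but no Top2a or Mki67 UMI (41.2% of all genes). Zic1 had a UMI in 94.7% of Tcf4_cKO and 92.9% of WT members, with thinned shares of 72.8% and 74.6% against 13.3% and 15.7% of microglia. Six3 was found in 67.9% of Tcf4_cKO and 77.5% of WT members, with thinned shares of 34.6% and 37.9%, and in thinned Emx1 cells in 10.8% and 11.5%. Nkx2-1 was found in 27.2% (21.8 to 33.3) of Tcf4_cKO members and 17.5% (12.9 to 22.9) of WT members, and thinned in 19.9% (15.1 to 25.5) and 14.6% (10.4 to 19.7), so the intervals overlapped. Isl1, a LIM factor of striatal and septal neurons, was found in 32.9% and 36.2% of members, Olig2 in 37.4% and 38.3%, and Pax6 in 32.1% and 42.9%.

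Members with an Nkx2-1 UMI had more of some ventral genes and less of several septal and lateral ones than the other members, and the genes named here went the same way in both libraries. There were 67 such cells in Tcf4_cKO and 42 in WT, at median depths of 9893 and 11730.5 UMIs, against 10984 and 12581 UMIs in the members without it. This division, and the one by Olig2, were chosen after the data were seen. Lhx8, a LIM factor of cholinergic and pallidal neurons, was at 223 CPM with Nkx2-1 and 7.38 CPM without it in Tcf4_cKO, and at 190 and 2.17 CPM in WT. Lhx6, the LIM factor of cortical interneurons that Nkx2-1 activates, was at 81.6 CPM with and 5.07 CPM without in Tcf4_cKO, and at 79.0 and 4.34 CPM in WT. Gsx1 and Olig2 were higher with Nkx2-1 in both libraries, at ratios of 6.56 and 2.68 in Tcf4_cKO and 2.26 and 1.59 in WT. Factors of dorsal and lateral territories were lower with Nkx2-1. Pax6 had ratios of 0.179 in Tcf4_cKO and 0.193 in WT, Sp8 0.150 and 0.336, Zic5 0.263 and 0.456, Zic2 0.281 and 0.413, Gsx2 0.280 and 0.474, and Meis2 0.447 and 0.525. Zic1 was lower but not absent, at 302 CPM with and 545 CPM without Nkx2-1 in Tcf4_cKO, and at 425 and 622 CPM in WT. Not all lists went one way. The medial eminence list had 4 of 5 tested genes higher with Nkx2-1 in Tcf4_cKO and 5 of 5 in WT, with median log2 ratios of 1.12 and 0.58. The septal list had 1 of 9 and 4 of 10 higher (-0.76 and -0.54) and the lateral list 1 of 8 and 4 of 9 (-0.72 and -0.31). The caudal list had 2 of 3 higher in Tcf4_cKO and 0 of 2 in WT. The G2 and M phase list also differed between the libraries, with 38 of 49 genes higher in Tcf4_cKO (0.098) and 2 of 49 in WT (-0.36). S phase genes were higher for 13 of 34 in Tcf4_cKO (-0.09) and 23 of 34 in WT (0.12). Of all genes, 4835 of 9283 were higher with Nkx2-1 in Tcf4_cKO and 4545 of 9533 in WT, and 11.3% and 14.7% were past 1.5-fold in either direction. Red cell sums were 142 CPM with and 5266 CPM without Nkx2-1 in Tcf4_cKO, and 13054 and 660 CPM in WT, and their part was not tested. Both marker cells lay in the group without Nkx2-1. Leaving them out gave Lhx8 at 7.81 CPM and Lhx6 at 5.37 CPM there.

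Olig2, a bHLH factor of ventral progenitors and of the oligodendrocyte lineage, gave a second division, which overlapped in part with that by Nkx2-1. An Olig2 UMI was found in 56.7% of Tcf4_cKO and 45.2% of WT members with Nkx2-1, against 37.4% and 38.3% of all members. Medial eminence genes were higher with Olig2 for 5 of 6 in Tcf4_cKO and 4 of 6 in WT. Septal genes were higher for 3 of 9 and 2 of 10, and lateral genes for 3 of 8 and 2 of 9. Members with an Olig2 UMI, 92 in each library, had more of many radial glia and Notch genes and less of the GABAergic neuron genes than the members without one. Radial glia genes were higher with Olig2 for 14 of 20 in Tcf4_cKO and 15 of 20 in WT, with medians of 0.43 and 0.49, and Notch genes for 11 and 13 of 14. Genes of the GABAergic neuron list, which holds general neuronal genes too, were higher for 0 and 1 of 16, with medians of -0.62 and -0.58. Glutamatergic genes differed between the libraries, with 1 of 8 higher in Tcf4_cKO and 7 of 8 in WT. Of all genes, 4585 of 9283 and 4756 of 9533 were higher, and 9.19% and 7.3% were past 1.5-fold in either direction. Hes5 was at 170 CPM with Olig2 and 35.3 CPM without in Tcf4_cKO, and at 247 and 52.3 CPM in WT. Olig1 was 5.09 and 4.89 times higher with Olig2 in Tcf4_cKO and WT, Ednrb, the endothelin receptor of glial progenitors, 2.75 and 3.24 times, and Fabp7, the radial glia lipid-binding protein, 2.13 and 1.91 times. Ccnd1 was 1.83 and 1.72 times higher with Olig2, whereas Ccnd2, another D cyclin, was at 0.804 and 0.832 times. Gad2 was at 86.4 CPM with and 207 CPM without Olig2 in Tcf4_cKO, and at 91.1 and 198 CPM in WT. Dlx5, Sp9, the neuronal stathmin Stmn2 and doublecortin (Dcx) were at 0.493 to 0.605 times the level without Olig2 across both libraries. The endothelial-marker cell lay in the Tcf4_cKO group with Olig2 and the microglia-marker cell in the group without. Endothelial sums there were 170 CPM with and 2.24 CPM without Olig2, and microglia sums 6.71 and 156 CPM. Leaving both cells out gave 11 of 20 radial glia genes higher with a median of 0.35, 11 of 14 Notch genes and 0 of 16 GABAergic genes. Hes5 was then at 131 CPM with and 35.5 CPM without Olig2, and Gad2 at 91.8 and 212 CPM. Red cell sums were 4050 CPM with and 3757 CPM without Olig2 in Tcf4_cKO and 5307 and 880 CPM in WT. In Tcf4_cKO the 4 red cell genes tested had a median log2 ratio of 0.22, and of -4.44 without both marker cells. The part of red cell RNA in the division by Olig2 was not tested.

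**Figure D2:**
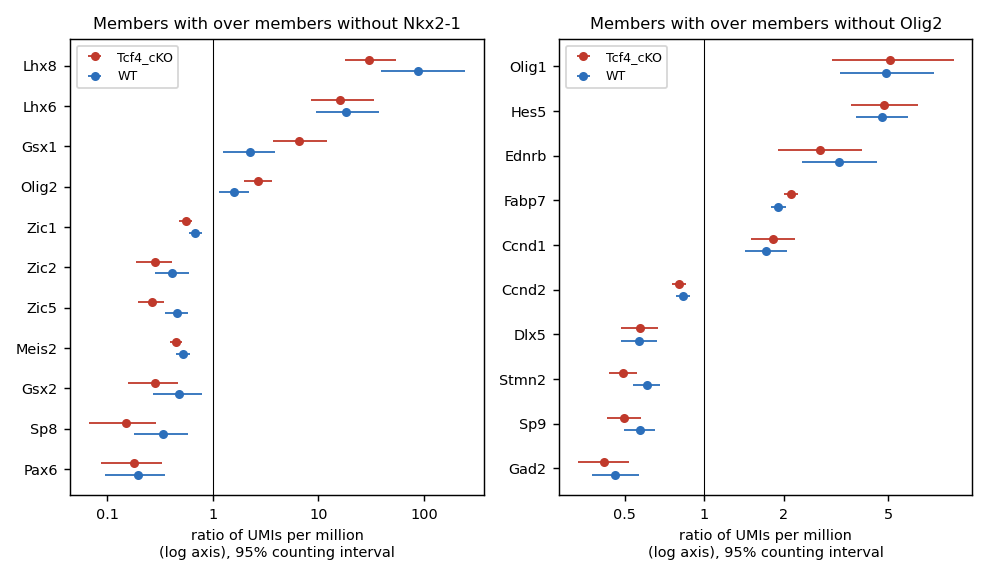
Ratio of CPM (log axes) in members with a UMI of Nkx2-1 (left) or Olig2 (right) over members without one, with 95% counting intervals, red Tcf4_cKO and blue WT. Every plotted gene has both libraries on the same side of 1: Lhx8 and Lhx6 lie furthest right on the left panel, Olig1 and Hes5 on the right panel, and Pax6 and Sp8 lie at the low end of the left panel and Gad2 at that of the right.

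Transcripts that define oligodendrocyte precursors were scarce in the members, while the pallial and septal factor Emx2 was found in many. Oligodendrocyte lineage genes summed to 108 CPM in Tcf4_cKO members and 145 CPM in WT members, most of it Olig1, Olig2 and Egfr. Sox10 and Pdgfra, which define oligodendrocyte precursors, were at 0.336 and 2.02 CPM in Tcf4_cKO members and 2.41 and 5.11 CPM in WT members. Of the pallial factors outside the rule, Emx2, which also marks the septum, was found in 37.0% of Tcf4_cKO and 40.4% of WT members, against 73.6% and 70.8% of cycling Emx1 cells. With Emx2, Neurog2 and Neurod1 also required to be at 0, 136 members were left in each library.

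Transcripts of S phase and of G2 and M phase were both found in the members. The 34 S phase genes made up a median of 0.333% of a member's UMIs in Tcf4_cKO and 0.355% in WT, and the 49 G2 and M phase genes 1.73% and 1.65%. S phase genes exceeded G2 and M phase genes in 34 of 246 Tcf4_cKO members (13.8%) and 31 of 240 WT members (12.9%). Because the rule asks for Top2a and Mki67, which peak in G2 and M phase, these proportions do not measure phase lengths. The ratio of summed S to G2 and M phase UMIs was 0.212 (0.208 to 0.216) in Tcf4_cKO members and 0.227 (0.223 to 0.232) in WT members. In cycling Emx1 cells it was 0.189 (0.187 to 0.191) and 0.217 (0.214 to 0.219). On the log2 scale, the Tcf4_cKO ratio over the WT ratio was -0.10 (-0.14 to -0.060) in members. It was 0.072 (0.0072 to 0.14) when only members with Gsx2 were kept. Without the Nkx2-1 members it was 0.016 (-0.030 to 0.062), an interval that held no difference. The value in members thus depended on which cells were kept.

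**Figure D3:**
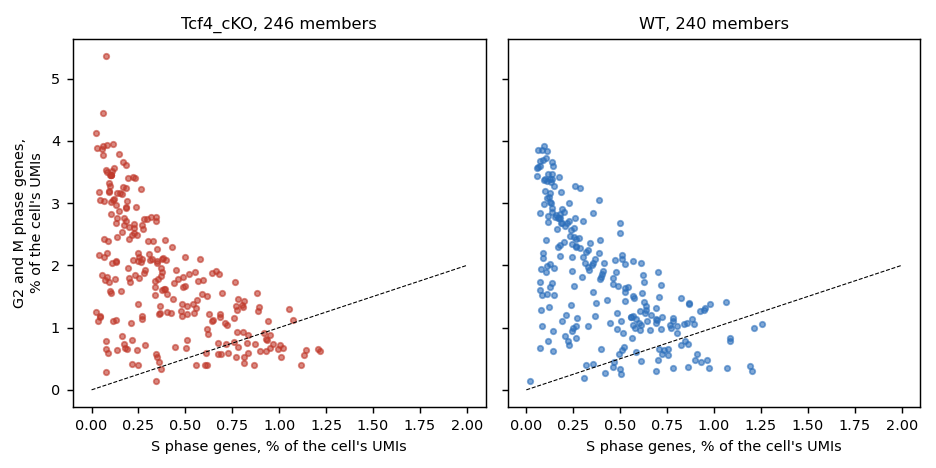
Each point is a member, placed by the percent of its UMIs from the 34 S phase genes (x) and from the 49 G2 and M phase genes (y), Tcf4_cKO on the left and WT on the right; the dashed line marks equal shares. Points in both panels run from cells rich in G2 and M phase transcripts with few S phase transcripts to cells with the reverse, and 34 of 246 and 31 of 240 members lie below the line.

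Between the genotypes, 0 of the 12 subpallial transcription factors were past 1.5-fold in the members. This count does not set them apart, since only 2.76% of all genes tested were past it. Tcf4 was closer to its WT level in the members than in the Emx1 cells. Of the 10853 genes with at least 20 UMIs, 300 (2.76%) were past 1.5-fold, 156 higher (1.44%) and 144 lower (1.33%) in Tcf4_cKO. In cycling Emx1 cells, which held more UMIs, 0.96% of 13027 genes were past it, 57 higher (0.438%) and 68 lower (0.522%). In noncycling cells with Dlx2 or Gsx2, 90 of 13491 genes (0.667%) were past it, 74 higher (0.549%) and 16 lower (0.119%). Of all genes tested in members, 43.6% were higher in Tcf4_cKO and the median log2 ratio was -0.03.

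Tcf4 lies on chromosome 18 at 69343356 to 69689079 (mm10). It was at 702 CPM (672 to 732) in Tcf4_cKO members and 808 CPM in WT members, a ratio of 0.868 (0.820 to 0.920). In cycling Emx1 cells it was at 1219 and 1843 CPM, a ratio of 0.661 (0.646 to 0.677). Noncycling cells with Dlx2 or Gsx2, defined by 0 UMIs of Top2a and Mki67 and otherwise the same rule, had 655 CPM in Tcf4_cKO and 740 CPM in WT. Per cell, the median level was 617 CPM (quartiles 364 and 932) in Tcf4_cKO members and 639 CPM (368 and 1025) in WT members, so the cells of both genotypes overlapped broadly. These are 3′ end counts, the labels do not say which part of Tcf4 is removed, and a transcript that lacks it can still be counted, so the level does not tell which cells had recombined. Free RNA held Tcf4 at 711 CPM in Tcf4_cKO and 977 CPM in WT, a level close to that of the members, and its part in their ratio was not tested. Without the microglia- and endothelial-marker cells the ratio was 0.886 (0.836 to 0.939). The value depended on the choice of cells: the log2 ratio, -0.20, was 0.036 after thinning, which left 134 Tcf4_cKO and 119 WT members, and -0.0023 when Emx2, Neurog2 and Neurod1 also had to be at 0.

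The Tcf4 difference was unevenly spread over the members. In members with a Pax6 UMI Tcf4 was at 616 CPM (572 to 663) in Tcf4_cKO, 79 cells, and 1013 CPM in WT, 103 cells, a ratio of 0.608 (0.557 to 0.664). In members without Pax6 it was at 756 CPM in Tcf4_cKO and 605 CPM in WT, a ratio of 1.25 (1.15 to 1.36). The medians per cell went the same way, 523 and 838 CPM with Pax6 and 668 and 528 CPM without, in Tcf4_cKO and WT. In members with Gsx2 the ratio was 0.714 (0.650 to 0.783) and without it 0.984 (0.913 to 1.06). In members with Emx2 it was 0.746 (0.683 to 0.814) and without it 0.983 (0.910 to 1.06). In members with Nkx2-1 it was 1.11 (0.987 to 1.25) and without it 0.778 (0.727 to 0.833). The ratio of these ratios was 0.487 (0.432 to 0.549) for Pax6, 0.726 (0.645 to 0.817) for Gsx2, 0.759 (0.676 to 0.852) for Emx2 and 1.43 (1.25 to 1.64) for Nkx2-1, each with over without. Of 10 such divisions by a single gene, all chosen after the data were seen, that by Slc1a3, at 0.837 (0.746 to 0.940), also had an interval off 1. Those of Six3 at 0.942 (0.826 to 1.07), Isl1 at 0.902 (0.801 to 1.02), Gad2 at 1.03 (0.911 to 1.16) and Neurog2 at 0.972 (0.735 to 1.29) held 1. The intervals count UMIs and not cells, and members with Pax6 were deeper, at 13222 and 14635 UMIs, against 9633 and 11371 UMIs without. With and without Olig2 the ratios were 0.920 (0.838 to 1.01) and 0.835 (0.775 to 0.899), and the first over the second was 1.10 (0.980 to 1.24). Both marker cells lay among the Tcf4_cKO members with Pax6 and those with Gsx2, where microglia sums were 238 and 230 CPM and endothelial sums 176 and 165 CPM. Without these cells Tcf4 had a ratio of 0.638 (0.582 to 0.698) with Pax6, 0.744 (0.677 to 0.818) with Gsx2, 0.783 (0.716 to 0.855) with Emx2 and 0.798 (0.745 to 0.855) without Nkx2-1. The ratio of ratios, with over without the gene, was then 0.511 (0.453 to 0.576) for Pax6, 0.757 (0.672 to 0.852) for Gsx2, 0.796 (0.709 to 0.895) for Emx2, 1.39 (1.22 to 1.60) for Nkx2-1, 0.879 (0.782 to 0.988) for Slc1a3 and 1.13 (1.01 to 1.27) for Olig2, the last now with an interval off 1. Red cell sums were 6880 CPM with and 1945 CPM without Pax6 in Tcf4_cKO and 993 and 4463 CPM in WT, and their part was not tested.

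**Figure D4:**
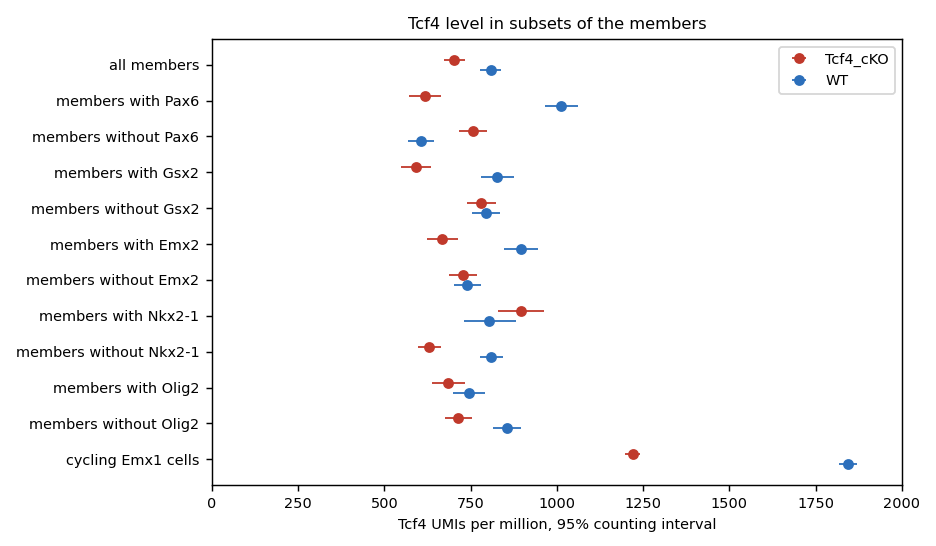
Tcf4 level (CPM, with 95% counting intervals) in all members, in members with or without a UMI of the named gene, and in cycling Emx1 cells; red Tcf4_cKO, blue WT. The red point lies left of the blue one among members with Pax6 (616 and 1013 CPM) and right of it among members without Pax6 (756 and 605 CPM).

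The other E proteins, Tcf12 and Tcf3, showed smaller differences than Tcf4. Larger ones were found among the partner genes, including Id2, Id3, Neurog2 and Neurod1. The products of the Id genes bind E proteins and keep them off DNA. Tcf12 was at 212 CPM in Tcf4_cKO members and 213 CPM in WT members, and Tcf3 at 158 and 167 CPM. Id2 was at 50.7 CPM in Tcf4_cKO and 102 CPM in WT, a ratio of 0.497 (0.408 to 0.604), with free RNA (droplets of 10 to 100 UMIs) at 102 and 313 CPM. Id3 had a ratio of 2.08 (1.72 to 2.52), and of 0.848 (0.645 to 1.11) when members with Nkx2-1 were left out. Id1 and Id4 had ratios of 1.22 (0.973 to 1.53) and 0.884 (0.753 to 1.04). Neurog2 and Neurod1, pallial bHLH factors, had 31 and 37 UMIs in Tcf4_cKO members and 5 UMIs each in WT members. Of the 14 genes of this list 7 were higher and 7 lower in Tcf4_cKO.

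The 12 subpallial transcription factors, a list that holds rule genes, had a median log2 ratio of 0.04, with 7 higher, 5 lower and 0 past 1.5-fold. Without Dlx2 and Gsx2 it had 6 higher and 4 lower, and the median was again 0.04. Of all genes tested in members, 43.6% were higher and 2.76% past 1.5-fold. Dlx1 was at 744 CPM in Tcf4_cKO and 730 CPM in WT, Dlx5 at 248 and 229 CPM, Sp9 at 327 and 317 CPM and Gsx1 at 20.8 and 19.3 CPM. Dlx6 was at 66.5 and 82.7 CPM, a ratio of 0.804 (0.666 to 0.969), and Sp8 at 57.1 and 66.5 CPM. Of the 16 genes of the GABAergic neuron list, which holds general neuronal genes too, 11 were higher and 0 past 1.5-fold. Gad1 and Gad2 had ratios of 1.03 (0.791 to 1.35) and 1.04 (0.914 to 1.18).

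All 10 septal midline genes that were tested had a lower level in Tcf4_cKO members, as did 56.4% of all genes tested. Their median log2 ratio was -0.26, against -0.03 for all genes. Zic4, a zinc finger factor of the dorsal and septal midline, was at 164 CPM in Tcf4_cKO and 231 CPM in WT, a ratio of 0.712 (0.634 to 0.799). Zic1 was at 479 and 589 CPM, a ratio of 0.812 (0.758 to 0.870), Six3 at 161 and 192 CPM, and Zic5 at 214 and 247 CPM. Members with Nkx2-1, which had less Zic1, were a larger share in Tcf4_cKO. Without those members Zic1 had a ratio of 0.875 (0.812 to 0.943), Zic4 0.757 (0.667 to 0.857), Six3 0.915 (0.799 to 1.05), Zic2 0.920 (0.787 to 1.07) and Zic5 0.986 (0.883 to 1.10). Free RNA held Zic4 at 185 and 196 CPM. Zic4 also had a lower level in cycling Emx1 cells, at a ratio of 0.764. After thinning, the list median was -0.039, Zic4 was at 0.0044 (-0.55 to 0.56) and Zic1 at -0.10 (-0.37 to 0.18) on the log2 scale. Fgf8, the midline patterning ligand, had 2 UMIs in Tcf4_cKO members and 31 in WT members.

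Some ventral genes were higher in the Tcf4_cKO members, though not under every choice of cells. Nkx2-1 was at 135 CPM in Tcf4_cKO and 73.7 CPM in WT, a ratio of 1.84 (1.56 to 2.16), Lhx8 at 65.9 and 33.7 CPM, a ratio of 1.95 (1.54 to 2.49), and Lhx6 at 25.9 and 16.8 CPM, a ratio of 1.54 (1.07 to 2.21). Of the medial ganglionic eminence list 5 of 7 tested genes were higher, 3 of them past 1.5-fold, and the list median was 0.50. Among all genes tested in members, 43.6% were higher and 1.44% were past 1.5-fold upward. The noncycling Dlx2 or Gsx2 cells had Nkx2-1 at 126 CPM in Tcf4_cKO and 59.5 CPM in WT and Lhx8 at 143 and 62.6 CPM. Free RNA held Nkx2-1 at 41.2 and 28.8 CPM and Lhx8 at 53.6 and 33.4 CPM. More cells with the gene and more transcript per cell both enter such sums, and how much ventral tissue each dissection took was not recorded in the labels. With a Gsx2 UMI required, Nkx2-1 had a log2 ratio of 0.41 (-0.12 to 1.05), Lhx8 -0.31 (-1.87 to 0.79) and Lhx6 -0.35 (-2.94 to 1.14). After thinning Nkx2-1 was at 0.50 (-0.078 to 1.14), Lhx8 at 0.46 (-0.31 to 1.34) and Lhx6 at 0.077 (-1.24 to 1.46). Lmo1, a LIM-only gene, was at 170 and 107 CPM, a ratio of 1.58 (1.38 to 1.82) that was 1.14 (0.895 to 1.44) without the Nkx2-1 members. The lateral ganglionic eminence list had 8 of 10 genes higher with a median of 0.12, and the caudal list 3 of 3 with 0.21.

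Some radial glia genes, among them the Notch pathway gene Hes5, were lower in Tcf4_cKO members, while the radial glia and Notch lists were split. Slc1a3, a glial glutamate transporter, was at 108 CPM in Tcf4_cKO and 163 CPM in WT, a ratio of 0.659 (0.573 to 0.759), and had a UMI in 32.9% (27.1 to 39.2) and 47.1% (40.6 to 53.6) of members, and in 16.7% (12.2 to 21.9) and in 60 of the 240 (interval 19.7% to 31.0%) when thinned. Pax6, a radial glia factor, was at 59.1 and 88.4 CPM, a ratio of 0.669 (0.551 to 0.809). The direction was the reverse in cycling Emx1 cells, where Pax6 was higher in Tcf4_cKO, at 270 and 238 CPM, a ratio of 1.14 (1.08 to 1.20). Hes5 was at 89.4 and 134 CPM, a ratio of 0.668 (0.571 to 0.779), and 0.541 (0.457 to 0.640) without the 2 marker cells. With at least 4 UMIs of Dlx2 and Gsx2 required, its log2 ratio was 0.13 (-0.16 to 0.44), the reverse direction. Free RNA held Pax6 at 81.3 and 51.9 CPM, Hes5 at 138 and 122 CPM and Slc1a3 at 149 and 145 CPM in Tcf4_cKO and WT, and its part in these values was not tested. The radial glia list as a whole was split, 9 higher and 11 lower of 20 with a median of -0.12, and so was the Notch list, 9 higher and 7 lower of 16 with 0.01. Summed over the radial glia list, the level was 5104 CPM in Tcf4_cKO and 4899 CPM in WT, with the marker cells kept. Dll1, a Notch ligand, had a ratio of 1.05 (0.855 to 1.30). Of 5 tested oligodendrocyte lineage genes 5 were lower, against 56.4% of all genes. Among them was Olig1 at 29.6 and 43.6 CPM, while Olig2 was at 56.4 and 62.0 CPM.

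Most S phase genes had a slightly lower level in Tcf4_cKO members. Of 34 S phase genes 27 were lower, with a median of -0.09, against 31 lower with a median of -0.19 in cycling Emx1 cells. Among all genes tested, 56.4% were lower in members, with a median of -0.03, and 53.1% in cycling Emx1 cells, with -0.01. The 49 G2 and M phase genes had 27 higher and 22 lower and a median of 0.01. In either list 0 genes were past 1.5-fold, against 2.76% of all genes. Mcm6 was at 99.8 CPM in Tcf4_cKO members and 133 CPM in WT members, a ratio of 0.750 (0.646 to 0.871), while Mcm2 had 0.966 (0.799 to 1.17). Histone genes that are transcribed in S phase were among the 12 lowest: Hist1h1b was at 589 and 808 CPM, a ratio of 0.729 (0.686 to 0.774), and Hist1h2ae, Hist1h2ap, Hist1h1a and Hist1h2bm had ratios of 0.755, 0.719, 0.646 and 0.593. Members of the histone cluster are near copies of each other, so the split of reads among them is uncertain. In cycling Emx1 cells these 5 had ratios of 0.591 to 0.915.

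The gene furthest apart between the libraries was Colec12, a scavenger receptor gene on chromosome 18. It was at 64.5 CPM in Tcf4_cKO members and 2.41 CPM in WT members, a ratio of 26.8 (13.3 to 63.0), with a UMI in 52.4% and 1.67% of the cells. It was as far apart in cycling Emx1 cells, at a ratio of 34.0 (21.6 to 56.9), and in noncycling Dlx2 or Gsx2 cells, at 101 CPM in Tcf4_cKO and 0.795 CPM in WT. Free RNA held 59.6 CPM in Tcf4_cKO and 6.59 CPM in WT. Insm1, which drives the delamination of basal progenitors, was at 362 and 283 CPM, a ratio of 1.28 (1.17 to 1.40). Sfrp1, a secreted Wnt modulator, Tox3 and Zfp553 had ratios of 1.56, 1.37 and 1.42. Besides the glial and histone genes above, Mid1, a ubiquitin ligase gene, Lamtor3, a lysosomal adaptor gene, and Hspa5, the chaperone BiP, were among the 12 lowest, with ratios of 0.579, 0.630 and 0.716. All 3 were also below 1 in cycling Emx1 cells.

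Sparc and Tagln2 were among the 12 highest by the rule, and of these Sparc depended on the marker cells, while Tagln2 was lower without them but still above 1. Sparc was at 98.1 CPM in Tcf4_cKO members and 30.4 CPM in WT members, a ratio of 3.23, and 1.06 (0.790 to 1.42) without those cells. Tagln2 was at 57.1 and 13.8 CPM, a ratio of 4.13, and 2.43 (1.69 to 3.53) without them. The endothelial-marker cell alone held 190 of 292 Sparc UMIs and 70 of 170 Tagln2 UMIs.

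**Figure D5:**
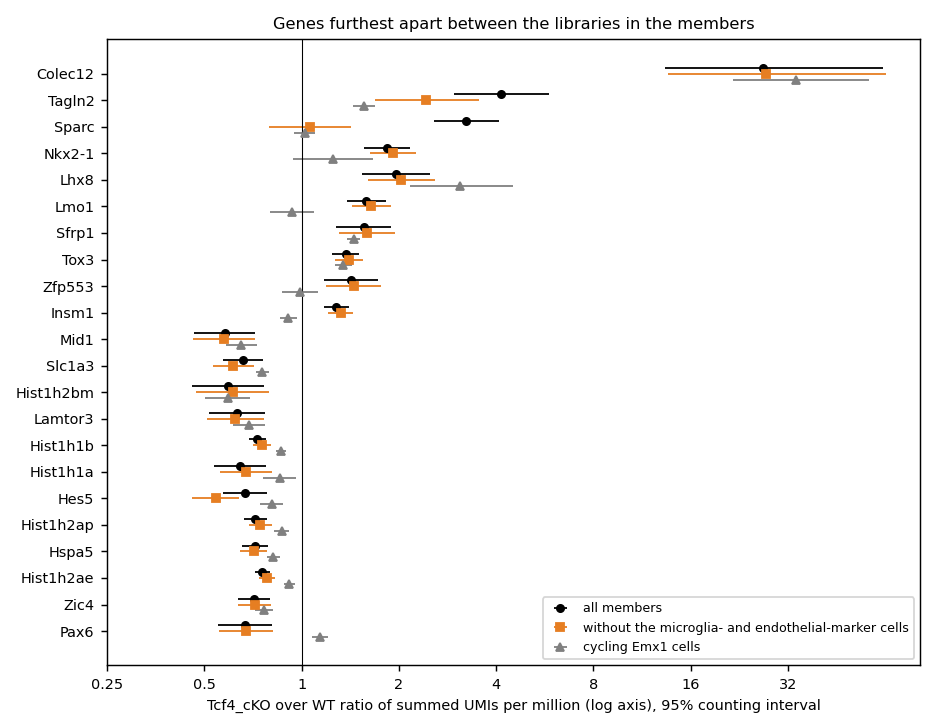
Ratio of CPM, Tcf4_cKO over WT (log axis), with 95% counting intervals, for 10 of the 12 highest and the 12 lowest genes by the interval bound nearest 1; circles are all members, squares members without the microglia- and endothelial-marker cells, triangles cycling Emx1 cells. Colec12 stands far right in all 3 sets, Sparc moves to 1.06 without the marker cells, and Pax6 lies left of 1 in members and right of it in cycling Emx1 cells.

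Metallothioneins, zinc-binding proteins, were higher for 3 of 3 genes in Tcf4_cKO members, with a list median of 0.51, against 43.6% of all genes higher. The list median was -0.18 when Emx2, Neurog2 and Neurod1 also had to be at 0, with Mt2 at -0.18 and Mt3 at -0.71, while Mt1 was at 0.92. After thinning Mt1 was at 1.04 (-0.24 to 3.14) and Mt3 at -0.32 on the log2 scale. Mt1 was at 73.6 CPM in Tcf4_cKO and 23.8 CPM in WT, a ratio of 3.10 (2.38 to 4.06), with a UMI in 32.1% (26.3 to 38.3) and 16.2% (11.8 to 21.5) of members, 14.6% (10.5 to 19.7) and 5.00% (2.61 to 8.57) when thinned. Free RNA held Mt1 at 143 CPM in Tcf4_cKO and 89.8 CPM in WT, above the level in members of either library, and its part in the difference was not tested. Thinned microglia had an Mt1 UMI in 57.8% and 64.7% of cells, and thinned endothelial cells in 8.82% and 11.1%. Mt2 was at 47.7 and 31.9 CPM, with an interval of 1.16 to 1.94 for the ratio. Without the marker cells Mt1 had a ratio of 3.09 (2.38 to 4.06) and Mt2 1.35 (1.03 to 1.77). Mt3 had a ratio of 1.36 (1.21 to 1.52), and of 0.944 (0.834 to 1.07) without the marker cells. The Mt1 promoter (chr8:94178839-94179138, plus strand, RefSeq, GRCm38.p6) held 3 copies of the letters of the metal response element, TGCACNC or TGCGCNC, shown in capitals. All 3 metallothionein promoters held such letters, as did 25.6% of all promoters.
Mt1: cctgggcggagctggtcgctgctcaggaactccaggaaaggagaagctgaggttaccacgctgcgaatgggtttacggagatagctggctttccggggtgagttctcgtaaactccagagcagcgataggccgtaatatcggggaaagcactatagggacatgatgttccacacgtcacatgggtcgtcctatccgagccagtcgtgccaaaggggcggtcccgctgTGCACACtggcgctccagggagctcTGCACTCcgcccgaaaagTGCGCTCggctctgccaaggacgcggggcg

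The difference of log2 ratios, members minus cycling Emx1 cells, was lowest for Palmd, Pax6, Baz2b, Meis2 and Pou3f2 and highest for Sparc, Tagln2, Asrgl1, Insm1 and Dcc. Meis2, a homeodomain factor of the lateral eminence and septum, was at 625 CPM in Tcf4_cKO members and 620 CPM in WT members, a ratio of 1.01 (0.946 to 1.07), against 1.39 (1.33 to 1.44) in cycling Emx1 cells. Dcc, the netrin receptor, was at 112 and 136 CPM in members, a ratio of 0.823 (0.713 to 0.951), against 0.556 (0.508 to 0.609). Asrgl1 had ratios of 1.06 and 0.639, Baz2b 0.865 and 1.40, and Pou3f2, a neural POU factor, 1.09 and 1.49, members first.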

How the data were processed

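The authors deposited unnormalized UMI counts for each barcode. Cell Ranger 7.1.0 made them per the file headers, but version 2.1.1, with mm10, stands in the submitters' processing notes. Introns, strand settings and cell calls are not given in the sources used here. Cells had at least 3350 UMIs, 500 genes and at most 10% mitochondrial UMIs. The members and gene lists were chosen with earlier results of these data known.

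UMIs were summed per library and cell group (numpy 2.4.6, scipy 1.17.1, Python 3.11.15). Levels have exact Poisson intervals, ratios exact conditional binomial intervals, differences of log2 ratios Wald intervals with 0.5 added. Genes past 1.5-fold on log2(CPM + 5), with 20 or more UMIs, were counted; no test was possible with 1 library per genotype. Named genes had 50 UMIs and 50 CPM or more and exceeded free RNA (droplets of 10 to 100 UMIs): 12 each way per contrast and 5 each way for differences, ranked by the bound nearest no difference, mitochondrial, ribosomal, haemoglobin and sex-linked genes left out, plus list genes. Some named genes are not reported here. Duplicated symbols were left out. Doublets were called with Scrublet in scanpy 1.11.5 at an expected 6%. Promoters were used once per symbol. Calculations were checked on simulated counts with counting error only, scored for genes with many UMIs. The check does not cover sparser genes or the spread between cells.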

Additional observations from a re-analysis of the deposited data

Results flagged for a closer look

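Between cell groups, some genes had Tcf4_cKO over WT ratios whose counting intervals lay on opposite sides of 1, and these differences were not tested over libraries. Pax6 had a ratio of 0.669 in members and 1.14 in cycling Emx1 cells. Palmd, at 34.9 CPM in Tcf4_cKO and 51.1 CPM in WT members, had 0.683 in members and 1.77 in cycling Emx1 cells. Insm1 had 1.28 in members and 0.909 in cycling Emx1 cells. Within the members, Tcf4 had a ratio of 0.608 in members with a Pax6 UMI and 1.25 in members without one. Depth, the share of members with each gene and the make-up of the dissections differed between the libraries, and their part in these values was not tested.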

How the results depend on the processing

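No paired analysis was possible because there was 1 library per genotype, and for the same reason no replicate could be left out. Of 19 alternatives, some changed which cells were kept, and 3 of these were chosen after the data were seen. Across those that changed the cells, the Tcf4_cKO over WT ratio of the members' share of cells was 0.760 to 0.993. All values below are log2 ratios or list medians of Tcf4_cKO over WT unless they are counts, and the cause was not tested.

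Tcf4, at -0.20, was 0.036 after thinning, -0.48 with Gsx2 required, -0.36 without Nkx2-1 members, -0.10 as a mean over cells and -0.0023 with Emx2, Neurog2 and Neurod1 also at 0. The 300 genes past 1.5-fold between genotypes became 761 with Gsx2 required, 533 with the stricter pallial rule, 814 after thinning, 851 and 41 with pseudocounts of 1 and 20, and 166 with a minimum of 50 UMIs. The 1101 genes between members and cycling Emx1 cells became 630 after thinning and 1766 and 524 with those pseudocounts. The log2 S to G2 and M ratio, -0.10, was 0.072 with Gsx2 required, 0.016 without Nkx2-1 members, -0.18 with the stricter pallial rule and -0.24 after thinning.

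With Gsx2 required, list medians were 0.0016 for S phase, -0.082 for G2 and M phase, -0.18 for the caudal list, -0.46 for radial glia and -0.29 for E proteins and partners, and Dlx6 was 0.049, Id3 -0.31, Lhx6 -0.35, Lhx8 -0.31 and Sfrp1 -0.064. With the stricter pallial rule they were 0.11 for G2 and M phase, 0.29 for Hedgehog, 0.10 for Notch, -0.37 for immediate early genes, -0.086 for the lateral list, -0.18 for metallothioneins and -0.12 for oligodendrocyte genes, and Mt2 was -0.18, Mt3 -0.71 and Sparc -0.74. After thinning they were 0.20 for GABAergic genes, -0.21 for S phase, -0.19 for immediate early genes, -0.32 for metallothioneins, 0.40 for oligodendrocyte genes and -0.039 for septal genes, and Id3 was -1.47, Mt3 -0.32, Tagln2 -0.055, Trpc4 0.33 and Zic4 0.0044. Without Nkx2-1 members, G2 and M phase was -0.070, the caudal list -0.28, cholesterol synthesis -0.27 and Id3 -0.21. Another alternative left out whole members with over 0.1% red cell UMIs, 3 in Tcf4_cKO and 2 in WT, called red cell members here. Metallothioneins were 0.38 without the marker cells, 0.41 without the red cell members, 0.31 as a mean over cells and 0.40 with a pseudocount of 20. Mt3 was -0.081, -0.26 and -0.16 in the first 3 of these. Without the red cell members, Sparc was -0.13 and G2 and M phase 0.042. G2 and M phase was 0.041 after centring and -0.013 at a Top2a and Mki67 minimum of 2. FGF genes were 0.16 without doublet calls, GABAergic genes 0.12 as a mean over cells, the caudal list 0.017 with no UMI minimum, and Hes5 0.13 at a Dlx2 and Gsx2 minimum of 4. Differences from cycling Emx1 cells changed sign for Sparc, at -0.97 with the stricter pallial rule and -0.18 without the red cell members. Those of Tagln2 (-0.95) and Pou3f2 (0.20) changed sign after thinning.

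About 240 cells per library limit rare subsets, and a few deep cells can set a sum.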

Other observations

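Immediate early genes, which respond to stimulation and dissociation, were mixed in the members: of 13 genes 7 were higher and 6 lower in Tcf4_cKO, with a median of 0.27 on the log2 scale. Egr1 was at 182 CPM in Tcf4_cKO members and 241 CPM in WT members, and Fos at 196 and 223 CPM. FGF signalling genes were higher for 5 and lower for 9 of 14, with a median of -0.17, and the Hedgehog pathway for 5 and 5 of 10, with 0.01. Ptch1, the Hedgehog receptor and target, was at 53.8 and 68.9 CPM. Cholesterol synthesis genes were higher for 9 and lower for 11 of 20, with -0.08, against 1 and 19 of 20 in cycling Emx1 cells. Of all genes, 43.6% were higher in Tcf4_cKO in members, and in cycling Emx1 cells 46.9% were higher and 53.1% lower.

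Cell cycle regulators were higher for 10 of 14, with a median of 0.10. Ccnd2 was at 1484 CPM in Tcf4_cKO members and 1342 CPM in WT members, and Cdkn1b, the inhibitor p27, at 172 and 225 CPM. Glutamatergic neuron genes were higher for 7 and lower for 3 of 10, with a median of 0.25. Mef2c was at 62.5 CPM in Tcf4_cKO members and 25.6 CPM in WT members, and Neurod6 at 42.0 and 20.2 CPM. The Tcf4_cKO levels include the microglia- and endothelial-marker cells. Free RNA held Mef2c at 195 and 155 CPM and Neurod6 at 373 and 355 CPM, above the members of either library, and its part in these levels was not tested. The pallial list, with 7 of 14 genes tested, had 4 higher and 3 lower and a median of 0.27.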
